A study of Rattus norvegicus with 32 samples.

Results

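Myelin genes and other genes of mature oligodendrocytes were followed in the hippocampus of rat pups. The members were 33 genes chosen by symbol from the deposited count table, which holds 32883 genes. Each symbol matched 1 row, and all 33 members had enough counts to be tested. They encode myelin proteins, enzymes of myelin lipids and metabolites, and receptors, signalling proteins and a transcription factor of oligodendrocytes. Total RNA was sequenced from 1 hippocampus of each of 32 wild-type pups, in 4 groups by diet and treatment. Iron-deficient (ID) pups came from dams fed a purified diet with 3 to 6 ppm iron from gestational day 3 to postnatal day 7, and iron-sufficient (IS) pups are those labelled as iron sufficient, with no diet described. The insulin groups received insulin into the nose 2 times a day from postnatal day 8 to 21, and the control groups are labelled as controls with no further treatment named. IS control held 8 libraries, IS insulin 7, ID control 9 and ID insulin 8. The labels give the day of collection as postnatal day 7 or 21 without assigning it to samples. Insulin ran until day 21, so insulin and age cannot be told apart if the controls were collected earlier. The sample titles begin with a number that the labels do not explain. This number was 71 throughout IS control, 72 throughout IS insulin and 73 throughout ID insulin, so it cannot be told apart from the group there, but ID control held 5 libraries numbered 69 and 4 numbered 70. Nothing says whether the pups of a group shared a litter, so a p-value here speaks only of the variation among these animals.

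Oligodendrocytes wrap axons in layers of membrane that become compact myelin, which speeds conduction and leaves channels of cytoplasm at its edges. Their precursors stop dividing, pass through a committed stage and then switch on genes for myelin proteins and for the galactolipids of the sheath. In rodents most forebrain myelin forms in the first weeks after birth, and oligodendrocytes hold much of the brain's iron, which several of their enzymes need. Because whole tissue was sequenced, fewer oligodendrocytes and less RNA per oligodendrocyte cannot be told apart.

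Total counts were 19619345 to 28062630 per library. Levels are given as CPM, a gene's counts relative to the library total after scaling for library composition. Among genes of Schwann cells, the myelinating cells of peripheral nerve, Prx was 3.14 to 6.26 CPM, Ncmap 0 to 0.093 CPM and Pmp2 0.289 to 2.79 CPM in the 32 libraries, against a sum of 11407 to 24133 CPM for the 33 members. A library of ID insulin, replicate 3, stood apart, with a chi-square against each of its group mates of 47.5 to 106 averaged over genes. Among the remaining libraries, mates of 1 group differed by 37.2 at most. Genes of thalamus and habenula, which border the hippocampus, summed to 552 CPM in ID insulin replicate 5 and to 124 to 236 CPM in all other libraries. Counts of called members and summaries over all members that rest on ID insulin are therefore given with and without these 2 libraries. Genes of the choroid plexus, a secretory tissue that lies against the hippocampus, summed to 14.8 to 3339 CPM for IS control pups, 24.6 to 4355 CPM for IS insulin, 1201 to 5613 CPM for ID control and 311 to 6049 CPM for ID insulin.

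The stretches just before the start sites of 5 members are shown, those of all members whose window holds the letters of the MYRF motif below. Whether these letters bear on the levels was not tested. Each stretch is the 250 bases before the RefSeq start site in assembly GRCr8, written in the direction of the gene. Capitals mark CTGGCAC, the core of the motif of the myelin regulatory factor MYRF, and ACAAAG, the core bound by SOX proteins, each on either strand (as GTGCCAG and CTTTGT on the other). The windows are chr1:249858191-249858440 (minus strand) for Opalin, chr1:95291045-95291294 (minus strand) for Mag, chr10:86011254-86011503 (plus strand) for Cnp, chr3:135341424-135341673 (minus strand) for Mal and chr2:175794439-175794688 (minus strand) for Hapln2.
Opalin: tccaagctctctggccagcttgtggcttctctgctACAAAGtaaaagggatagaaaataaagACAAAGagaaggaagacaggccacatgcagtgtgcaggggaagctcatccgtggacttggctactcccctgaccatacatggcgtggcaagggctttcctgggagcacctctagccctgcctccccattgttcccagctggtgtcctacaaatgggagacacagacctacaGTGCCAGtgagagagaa
Mag: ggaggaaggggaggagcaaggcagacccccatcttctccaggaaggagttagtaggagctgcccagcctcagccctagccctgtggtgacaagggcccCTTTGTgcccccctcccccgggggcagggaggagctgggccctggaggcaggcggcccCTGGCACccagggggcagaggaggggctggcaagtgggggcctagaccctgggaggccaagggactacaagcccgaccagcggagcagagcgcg
Cnp: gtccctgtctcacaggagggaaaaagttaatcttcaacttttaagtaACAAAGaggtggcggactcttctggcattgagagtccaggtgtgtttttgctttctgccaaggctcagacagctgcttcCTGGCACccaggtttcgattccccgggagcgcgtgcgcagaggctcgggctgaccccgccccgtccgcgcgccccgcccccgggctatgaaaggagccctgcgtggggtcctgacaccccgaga
Mal: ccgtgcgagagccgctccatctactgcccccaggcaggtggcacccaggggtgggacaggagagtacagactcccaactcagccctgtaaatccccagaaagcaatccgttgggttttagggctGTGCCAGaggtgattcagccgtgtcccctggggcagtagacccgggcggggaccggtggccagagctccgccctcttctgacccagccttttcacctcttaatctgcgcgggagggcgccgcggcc
Hapln2: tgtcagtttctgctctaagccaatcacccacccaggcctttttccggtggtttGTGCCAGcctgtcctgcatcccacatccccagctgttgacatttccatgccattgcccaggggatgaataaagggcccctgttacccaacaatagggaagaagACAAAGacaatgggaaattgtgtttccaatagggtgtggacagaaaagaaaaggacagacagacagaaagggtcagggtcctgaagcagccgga
The marked stretches do not overlap each other. Windows were found for 27 of the 33 members, and Mog, Ermn, Enpp2, Erbb3, Sema4d and Cryab were not matched. Only the first RefSeq entry of each member was read, and Mbp had 2 entries. The shares over all windows count every entry of a gene. CTGGCAC occurred in 5 of the 27 (Mal, Opalin, Mag, Cnp and Hapln2) and in 3.78% of all 33465 windows of this length. ACAAAG occurred in 6 of the 27 (Mobp, Opalin, Mag, Cnp, Hapln2 and Adamts4) and in 16.3% of all windows. A match is a run of letters and not a measured binding site.

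Their summed level was 13188 to 17586 CPM for IS control (median 15698) and 11407 to 17863 CPM for ID control (median 14207). With insulin it was 14197 to 19690 CPM for IS pups (median 16352) and 13097 to 24133 CPM for ID pups (median 15108). The 4 ranges overlap, and the highest library was ID insulin replicate 3. Member by member, ID control had the lowest group mean for 26 of 33 genes and the highest for 0. IS insulin had the highest mean for 18 members, ID insulin for 14 and IS control for 1. Without ID insulin replicates 3 and 5 the sum of ID insulin was 13097 to 17366 CPM (median 15061). ID control then had the lowest mean for 19 members and ID insulin for 12, and the highest mean lay in IS insulin for 24 members and in ID insulin for 6 (Gjc3, Ugt8, Gal3st1, Sema4d, Adamts4 and Sirt2).

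**Figure D1:**
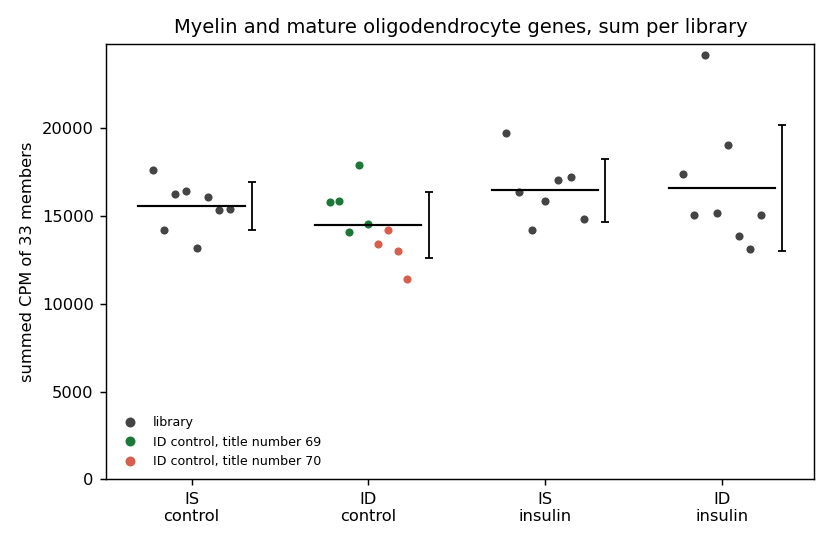
Summed CPM of the 33 members (y axis) in each library of the 4 groups (x axis), with 1 point per library, a bar at the group mean and an error bar of 1 SD. The ID control libraries numbered 70 lie at 11407 to 14207 CPM and those numbered 69 at 14086 to 17863 CPM, and ID insulin replicate 3 lies highest at 24133 CPM.

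Within groups most members moved together from pup to pup. With group means removed, Pearson's r between a member and the mean of the other members over the 32 libraries was 0.96 for Tspan2, a tetraspanin of the myelin membrane, and 0.95 for Cnp, the cyclic nucleotide phosphodiesterase of cytoplasm-filled myelin. It was lowest for Enpp2 (0.26), Qdpr (0.39), Pmp22 (0.42) and Cryab (0.49). Over the 30 libraries without ID insulin replicates 3 and 5 it was 0.94 for Tspan2 and for Cnp, and lowest for Qdpr (0.13), Enpp2 (0.18), Ninj2 (0.39) and Cryab (0.41). These values are a description, since the genes of a library share its depth and its dissection. In ID insulin, 33 of 33 members lay above their group median in replicate 5 and 32 in replicate 3, against 0 in replicate 7 and 1 in replicate 6. In IS insulin 32 members lay above the median in replicate 1 and 1 in replicate 3, and in ID control 32 in replicate 4 and 2 in replicate 9. The spread over libraries of a group, as a coefficient of variation, had a median over members of 10.6% for IS control, 13.2% for IS insulin, 13.4% for ID control and 17.1% for ID insulin, where it was 11.2% without replicates 3 and 5. It was lowest for Qdpr in ID control (4.59%) and highest for Enpp2 in each group (40.6% to 75.8%).

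**Figure D2:**
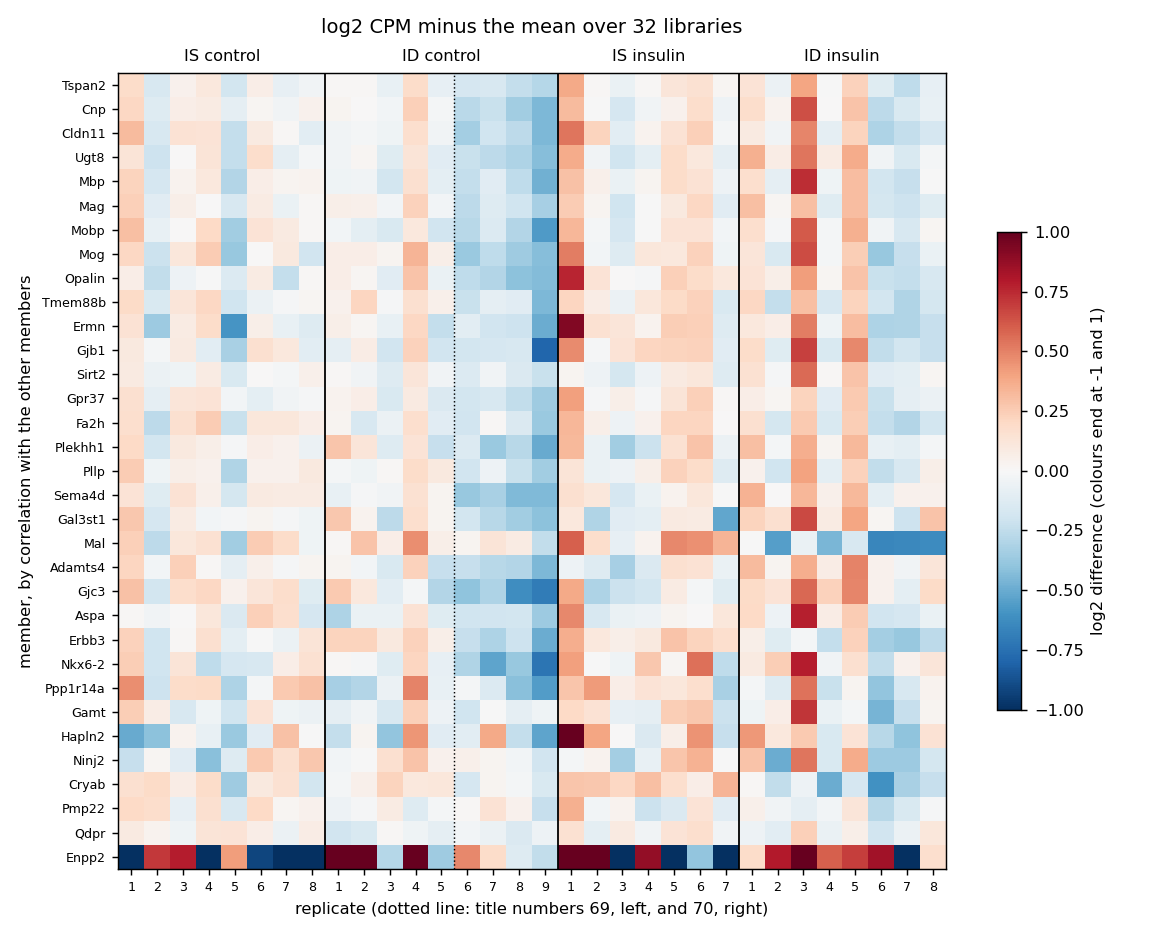
Level of each member (rows, ordered by their correlation with the other members) in each library (columns, by group and replicate) as log2 CPM minus the mean of that gene over 32 libraries; colours end at a difference of 1 in either direction. Columns tend to be of 1 colour, as in ID insulin replicate 3 (high) and ID control replicate 9 (low), while Mal is low in most ID insulin libraries and Enpp2 follows a pattern of its own.

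Enpp2, which encodes autotaxin, the enzyme that makes lysophosphatidic acid, is strongly expressed in choroid plexus as well as in oligodendrocytes. In IS control it was 125 to 211 CPM in the 5 libraries with choroid plexus sums of 14.8 to 363 CPM, and 535 to 690 CPM in the 3 libraries with sums of 2627 to 3339 CPM. In IS insulin it was 142 to 159 CPM in the 3 libraries with sums of 24.6 to 69.3 CPM, 304 CPM at a sum of 1028 CPM, and 733 to 875 CPM in the 3 libraries with sums of 3808 to 4355 CPM. In ID control it was 854 to 939 CPM in replicates 1, 2 and 4, with sums of 4608 to 5613 CPM. The other ID control libraries had 313 to 557 CPM at sums of 1201 to 3412 CPM. In ID insulin it was lowest, at 156 CPM, in replicate 7, whose choroid plexus sum of 311 CPM was also the lowest of its group. Enpp2 was high in these groups where choroid plexus transcripts were high. Its group means were 336 CPM for IS control, 461 CPM for IS insulin, 561 CPM for ID control and 585 CPM for ID insulin.

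The first comparison set iron-deficient against iron-sufficient pups without insulin, as ID control minus IS control. No member was called in either direction, and 0.291% of the 15439 genes tested were called at an adjusted p under 0.05 in edgeR's quasi-likelihood test. At an unadjusted p under 0.05 the members held 5 lower and 0 higher, where 4.97% of all genes were lower and 6.89% higher. DESeq2 called 0 members and 0.738% of all genes. A weighted test, limma voom with sample quality weights, called 2 lower, Gjc3 and Sema4d, and 1.57% of all genes. Most fold changes pointed down: 29 of 33 were below 0, with a median log2 fold change of -0.11, against a median of 0.01 over all genes. Related lists also tilted down, with 0 genes called. Of 19 tested genes of oligodendrocyte precursors and committed precursors 15 were below 0 (median -0.09), and 6 were lower at an unadjusted p under 0.05. Of 21 further genes of mature oligodendrocytes 16 were below 0 (median -0.06), and 5 were lower by that rule. The controls of this comparison are shared with the others, so the counts in different comparisons are not independent.

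Among the compact myelin proteins, Mbp, the basic protein that holds the cytoplasmic faces of the membrane together, was 6635 to 9469 CPM in IS control (median 8334) and 5812 to 9075 CPM in ID control (median 7529). The ranges overlap, with 1 of 9 ID control libraries below all IS control libraries (log2 fold change -0.14, SE 0.10, adjusted p = 0.615). Mobp, a second basic protein of the sheath, was 903 ± 117 CPM in IS control and 775 ± 98.2 CPM in ID control (SD, n = 8 and 9; log2 fold change -0.22, adjusted p = 0.334). Among the junction and loop proteins, Cnp had a log2 fold change of -0.13 (adjusted p = 0.639), and the lowest value was that of Gjc3, a connexin of oligodendrocytes, at -0.30 (SE 0.11, adjusted p = 0.271). Gjc3 was 21.6 to 30.0 CPM in IS control (median 27.2) and 15.1 to 29.4 CPM in ID control (median 20.0), with 5 of 9 ID control libraries below all IS control libraries. Among the enzymes, Qdpr, which recycles the cofactor tetrahydrobiopterin, had the smallest unadjusted p of the members and an adjusted p of 0.232 (log2 fold change -0.14, SE 0.05). Enpp2 had the largest difference, at 0.74 (SE 0.42, adjusted p = 0.494), with all 9 tested choroid plexus genes also above 0 (median 1.196). The part of choroid plexus in the Enpp2 value was not tested on its own. A fit with the choroid plexus, meninges and thalamus lists together as covariates was run, but its Enpp2 value is not given here. All 9 receptors, signalling and other members had negative values, from -0.03 for Cryab to -0.25 for Ppp1r14a, an inhibitor of myosin phosphatase. The deacetylase gene Sirt2 had -0.06 (adjusted p = 0.772).

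The 2 title numbers inside ID control differed in these genes. Of the 33 members 4 were called lower in the libraries numbered 70 than in those numbered 69, where 0.22% of the 15008 genes tested were called in either direction and 0.147% lower. In 31 of 33 members the fold change was below 0, with a median of -0.25 against 0.00 over all genes, and 22 were lower at an unadjusted p under 0.05 against 4.74% of all genes. For 14 members every library numbered 70 lay below every library numbered 69, against 1.75% of all genes. These were Pllp, Opalin, Tspan2, Tmem88b, Mog, Mag, Cnp, Cldn11, Gjc3, Ugt8, Erbb3, Gpr37, Sema4d and Nkx6-2. Most members moved together from library to library, as given above. Counts of members, here and in the other comparisons, therefore do not rest on independent genes.

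The 4 called members were Mog, Erbb3, Sema4d and Cnp. Mog (ENSRNOG00000000775), a glycoprotein on the outer face of the sheath, was at 181, 181, 176, 219 and 181 CPM in the 5 libraries numbered 69 and at 134, 146, 136 and 129 CPM in the 4 numbered 70. The groups did not overlap (log2 fold change -0.47, SE 0.07, adjusted p = 0.0175). Erbb3 (ENSRNOG00000004964), a receptor for neuregulins, was at 56.7, 56.6, 51.9, 57.0 and 50.7 CPM against 41.4, 39.3, 42.2 and 34.5 CPM. All 4 lay below (log2 fold change -0.47, SE 0.07, adjusted p = 0.0175). Sema4d (ENSRNOG00000013679), a transmembrane semaphorin, was at 173, 181, 178, 202 and 186 CPM against 140, 146, 134 and 134 CPM. Again the groups did not overlap (log2 fold change -0.41, SE 0.05, adjusted p = 0.0148). Cnp (ENSRNOG00000017496) was at 1381, 1359, 1328, 1595 and 1340 CPM against 1122, 1160, 1066 and 991 CPM, also apart (log2 fold change -0.37, SE 0.06, adjusted p = 0.049). Leaving out ID control replicate 9 left 0 members called, leaving out replicate 6 or 7 left Sema4d and leaving out replicate 8 left Erbb3. Leaving out any of replicates 1 to 5 left Mog, Erbb3 and Sema4d.

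**Figure D3:**
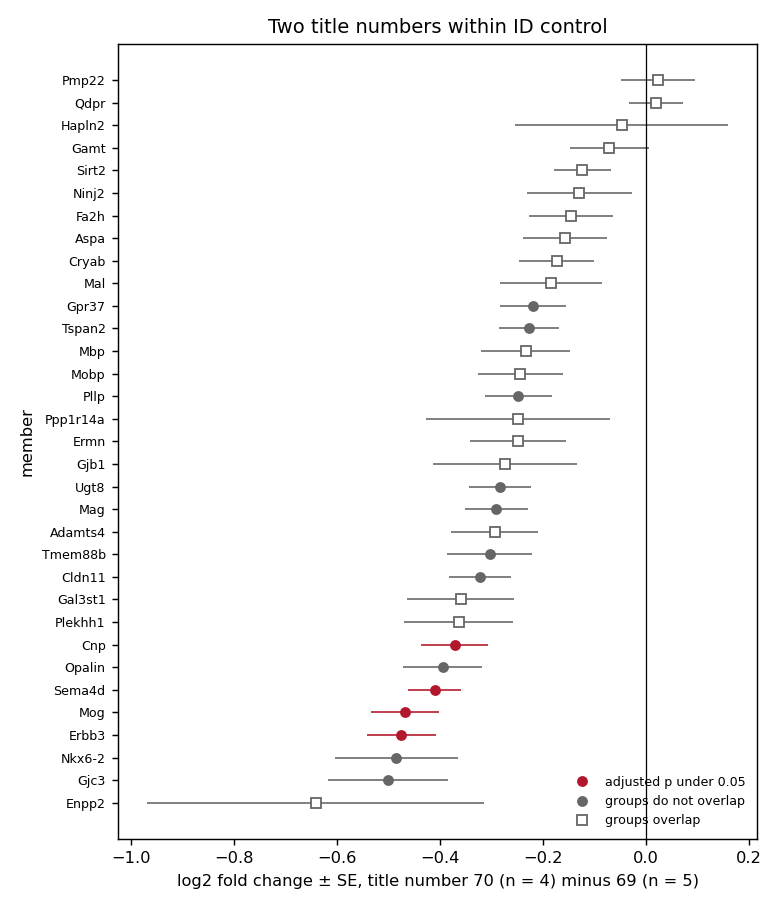
Log2 fold change with its SE (x axis) of each member (y axis) between the 4 ID control libraries numbered 70 and the 5 numbered 69. Values below 0 are lower in the libraries numbered 70; the 4 called members are red, filled circles mark the 14 members whose groups do not overlap, and 31 of 33 values lie below 0.

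The members that did not follow were Pmp22 (0.02), the peripheral myelin protein that other cells also make, Qdpr (0.02) and Hapln2 (-0.05), a link protein of the matrix at nodes. Mal was at 502 to 685 CPM in the libraries numbered 69 and 418 to 543 CPM in those numbered 70 (log2 fold change -0.18, adjusted p = 0.625). Mbp was 7148 to 9075 CPM against 5812 to 7529 CPM (-0.23, adjusted p = 0.438). Ugt8, which makes galactosylceramide, was 457 to 545 CPM against 371 to 427 CPM (-0.28, adjusted p = 0.106). By role, 8 of 9 receptors, signalling and other members, 6 of 9 junction and loop proteins, 6 of 8 compact myelin proteins and 2 of 7 enzymes were lower at an unadjusted p under 0.05. Of 19 precursor genes tested 0 were called and 13 were below 0, with a median of -0.03. At an unadjusted p under 0.05, 4 of them were lower and 1 higher. Of 21 further genes of mature oligodendrocytes 1 was called lower, the sphingosine phosphate receptor gene S1pr5 (-0.45, adjusted p = 0.0406, median of the list -0.17). In that list 18 were below 0, and 9 were lower and 0 higher at an unadjusted p under 0.05.

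Other measures also differed between the numbers. The summed red blood cell genes were 541 to 959 CPM in libraries numbered 69 and 371 to 489 CPM in those numbered 70, and Slc4a1, the anion exchanger of red cells, was lower in the latter (-1.11, adjusted p = 0.0406). Choroid plexus sums were 1201 to 5613 CPM against 1639 to 3412 CPM, and total counts were 19810449 to 23436458 against 22188241 to 26182907. Their part in the result was not tested, except that with the means of the choroid plexus, meninges and thalamus lists as covariates 8 members were called lower, where 0.24% of all genes were called.

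Each set was then compared with IS control. With the libraries numbered 69 alone as ID control, 17 members were above 0 and 16 below, the median was 0.01 and 0 were called, against 0.218% of all genes. With the libraries numbered 70 alone, 2 were above 0 and 31 below, the median was -0.26 and 2 were called lower, against 0.235% of all genes. These were Gjc3 (log2 fold change -0.60, adjusted p = 0.0248) and Sema4d (-0.44, adjusted p = 0.009). The downward shift of the median in ID control thus lay in the libraries numbered 70. Some members were lower than in IS control in both sets. Qdpr had means of 57.0 CPM in the libraries numbered 69, 57.9 CPM in those numbered 70 and 63.1 CPM in IS control. The difference between the sets is the test given above.

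The effect of insulin after iron deficiency was read from ID insulin minus ID control. Of the 33 members 4 were called higher and 2 lower in ID insulin, while 3.82% of all genes were called, 1.96% higher and 1.86% lower. The higher ones were Gjc3, Adamts4, Ugt8 and Sema4d, and the lower ones were Mal and Cryab. Of the fold changes 28 were above 0 and 5 below, with a median of 0.13 against 0.00 over all genes. For 0 members did the groups not overlap, where this was so for 0.0907% of all genes as higher and 0.11% as lower.

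Gjc3 (ENSRNOG00000001329) was 15.1 to 29.4 CPM in ID control (median 20.0) and 23.0 to 36.5 CPM in ID insulin (median 28.1). The groups overlap, with 2 of 8 ID insulin libraries above all ID control libraries (log2 fold change 0.44, SE 0.11, adjusted p = 0.0236). Adamts4 (ENSRNOG00000003538), a protease that cleaves matrix proteoglycans, was 96.7 to 155 CPM against 129 to 187 CPM, with medians of 113 and 141 CPM. The ranges again overlap, with 3 of 8 libraries above all controls (log2 fold change 0.33, SE 0.08, adjusted p = 0.0205). Ugt8 (ENSRNOG00000009345) was 371 to 545 CPM (median 457) in ID control and 447 to 720 CPM (median 525) with insulin (log2 fold change 0.31, SE 0.09, adjusted p = 0.0456). Sema4d was 134 to 202 CPM (median 173) in ID control and 171 to 232 CPM (median 189) with insulin (log2 fold change 0.29, SE 0.08, adjusted p = 0.0286). For these 4 genes the libraries numbered 70 lay at the low end of ID control.

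The call of the 4 higher members depended on which libraries were included. With the libraries numbered 69 alone as ID control, 0 members were called higher and 1, Mal, lower, with a median of 0.03 and 0.964% of all genes called. With the libraries numbered 70 alone, 7 were called higher and 0 lower, with a median of 0.28 and 1.47% of all genes called. The 7 were Gjc3, Ugt8, Gal3st1, Sema4d, Adamts4, Nkx6-2 and Plekhh1. Without ID insulin replicates 3 and 5, 0 were higher and 2 lower, with a median of 0.02 and 2.31% of all genes called. The 2 were Mal (-0.58, adjusted p = 0.00888) and Cryab (-0.33, adjusted p = 0.0351). Leaving out ID insulin replicate 5 alone left the same 2 genes, leaving out ID control replicate 8 left Mal and Adamts4, and leaving out ID control replicate 7 left Mal, Gjc3 and Adamts4. The fit of the compared groups alone and the fit with 3 tissue lists as covariates each left Mal as the only called member, with 1.86% and 0.46% of all genes called.

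**Figure D4:**
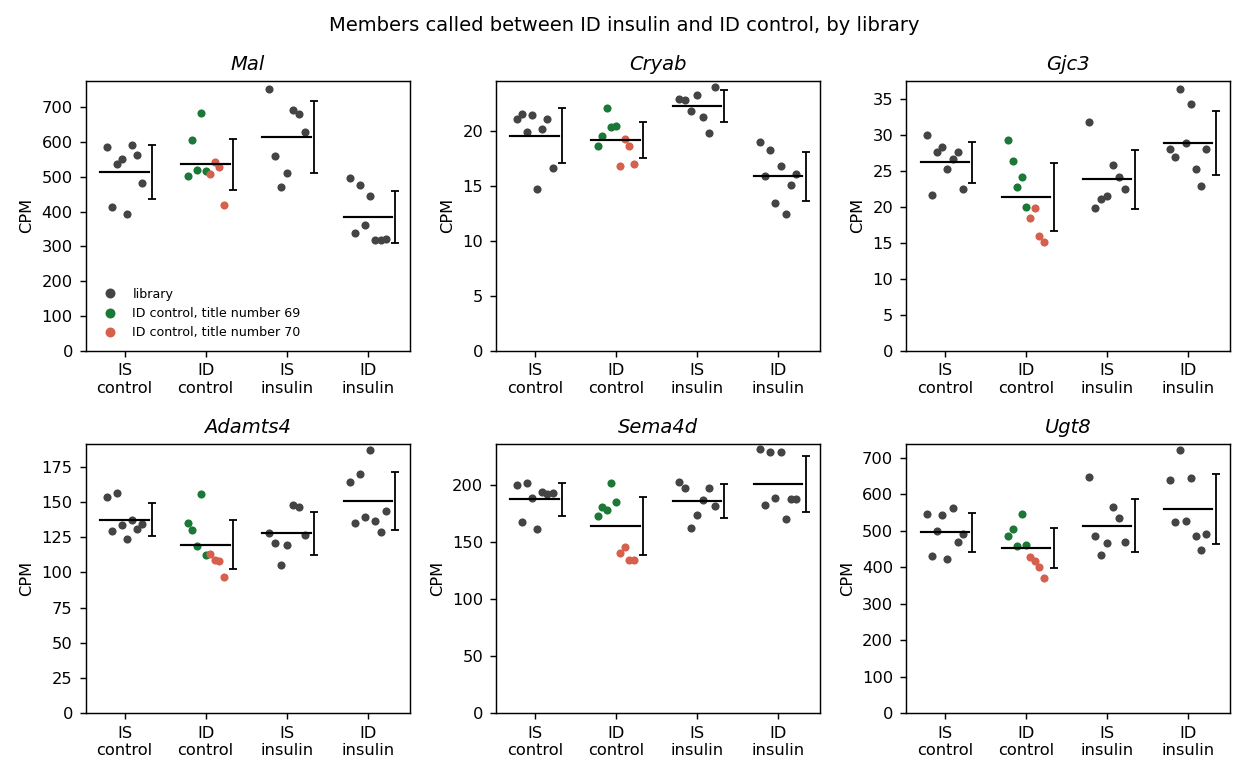
CPM (y axis) of the 6 members called between ID insulin and ID control in each library of the 4 groups (x axis), with 1 point per library, a bar at the group mean and an error bar of 1 SD; colours mark the title numbers within ID control. Mal and Cryab have their lowest group mean in ID insulin. For each of the 4 other genes the lowest library is an ID control library numbered 70. Single libraries of other groups lie among those numbered 70 for Gjc3, Adamts4 and Ugt8.

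Mal (ENSRNOG00000015445), a raft protein that carries cargo to the myelin membrane, was the member with the largest called decrease. Its levels were 502, 605, 519, 685 and 517 CPM in ID control libraries numbered 69 and 507, 543, 527 and 418 CPM in those numbered 70. In ID insulin they were 497, 339, 476, 361, 444, 317, 318 and 322 CPM, with 5 of 8 below all ID control libraries. IS control ranged from 392 to 591 CPM (median 544) and IS insulin from 470 to 753 CPM (median 630). ID insulin was below ID control (log2 fold change -0.48, SE 0.11, adjusted p = 0.0116) and below IS insulin (-0.68, SE 0.11, adjusted p = 0.00166). In ID insulin replicates 3 and 5, where nearly all members were above their medians, Mal was 476 and 444 CPM, within the range of ID control. Leaving out any 1 of the 32 libraries kept the Mal call against ID control, and with the libraries numbered 70 alone it was lost (-0.38, adjusted p = 0.161).

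Cryab (ENSRNOG00000010524), a small heat shock protein, was 14.8 to 21.6 CPM for IS control (median 20.7) and 19.9 to 24.0 CPM for IS insulin (median 22.9). It was 16.9 to 22.1 CPM for ID control (median 19.3) and 12.5 to 19.1 CPM for ID insulin (median 16.1). All 8 ID insulin libraries lay below all 7 IS insulin libraries, which was so in the same direction for 0.22% of all genes. ID insulin was below IS insulin (log2 fold change -0.49, SE 0.08, adjusted p = 0.00139) and below ID control (-0.28, SE 0.08, adjusted p = 0.0413), the latter with 6 of 8 libraries below all controls. Leaving out 1 library ended the call against ID control in 11 of 32 fits, with ID control replicate 2, 3, 4, 5, 7 or 8 or ID insulin replicate 2, 4, 6, 7 or 8 as the library left out (adjusted p up to 0.0904).

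The other members of this comparison did not pass the test. Mbp was 5812 to 9075 CPM in ID control and 6926 to 13591 CPM in ID insulin, and replicates 3 and 5 were the highest of all 32 libraries (log2 fold change 0.25, SE 0.10, adjusted p = 0.171). Mobp had 0.31 (adjusted p = 0.0589), and Gal3st1, which adds the sulfate of sulfatide, had 0.32 (adjusted p = 0.0736). Nkx6-2, a homeodomain transcription factor of oligodendrocytes, had 0.36 (adjusted p = 0.117), and Aspa, which cleaves N-acetylaspartate, had 0.28 (adjusted p = 0.121). Cnp had 0.21 (adjusted p = 0.217) and Sirt2 0.18 (adjusted p = 0.122). Enpp2 had 0.06 (SE 0.41, adjusted p = 0.955).

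**Figure D5:**
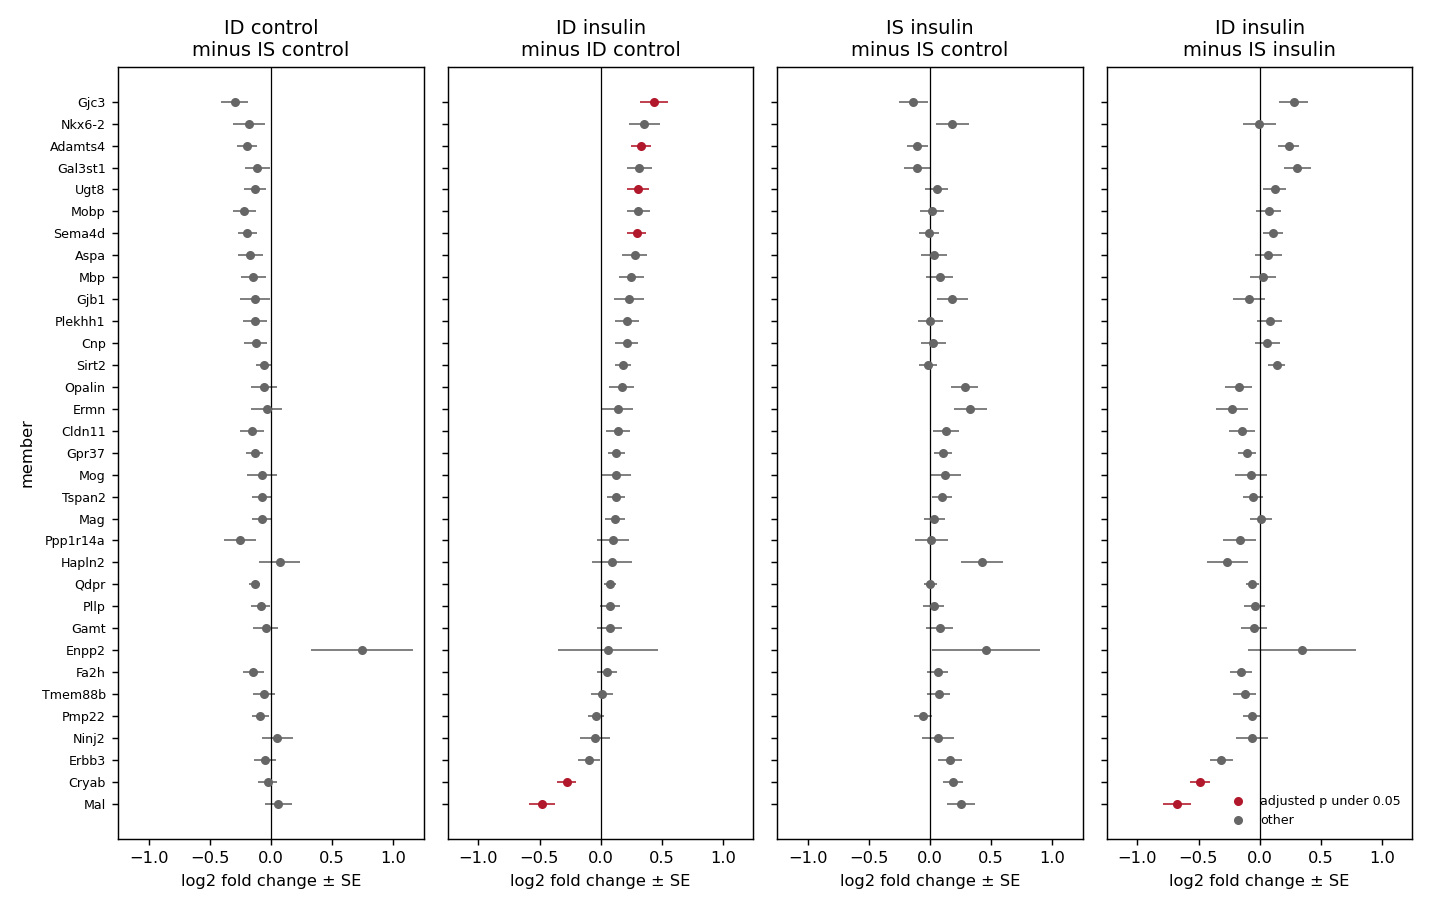
Log2 fold change with its SE (x axes) of each member (y axis, ordered by ID insulin minus ID control) in 4 comparisons, with called members in red. Values of ID control minus IS control lie mostly just below 0 and those of ID insulin minus ID control mostly above 0, while Mal and Cryab are lowest in both comparisons of ID insulin.

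Genes of other cell types were also called in the same comparison, where 3.82% of all genes were called. Red blood cell genes summed to 371 to 959 CPM in ID control and 386 to 2172 CPM in ID insulin, with 3 of 4 called higher. Meninges and fibroblast genes summed to 524 to 867 CPM and 320 to 581 CPM, with 4 of 8 tested called lower. Of the 8 tested thalamus and habenula genes 2 were higher and 1 lower, and of 6 endothelial and pericyte genes 2 were lower. Of 6 tested genes of hippocampal neurons 1 was lower and 6 were below 0, and of 7 microglial genes 1 was lower and 6 were below 0. The lower ones were Wfs1 (-0.38, adjusted p = 0.0257) and Tmem119 (-0.28, adjusted p = 0.0275). Of the ID insulin libraries, replicate 5 had the highest thalamus and habenula sum (552 CPM). Replicate 3 had the highest red blood cell sum (2172 CPM) and the lowest endothelial and pericyte sum (178 CPM). Counts for these lists without the 2 libraries are not given. The part of red blood cells, endothelium, neurons and microglia in the member results was not tested.

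Some genes of oligodendrocyte precursors and committed precursors were also higher in ID insulin than in ID control. Of 19 tested, 5 were called higher and 0 lower, with a median of 0.22. Gpr17, a receptor of committed precursors, was 76.1 to 99.5 CPM in ID control (median 86.4) and 94.8 to 119 CPM in ID insulin (median 106; log2 fold change 0.28, adjusted p = 0.00232). Enpp6, a choline phosphodiesterase of newly forming oligodendrocytes, was 18.98 to 31.96 CPM and 27.5 to 42.0 CPM (0.44, adjusted p = 0.00737). Itpr2, a calcium release channel of the endoplasmic reticulum, had 0.44 (adjusted p = 0.0106), and Nkx2-2, a homeodomain factor, had 0.46 (adjusted p = 0.028). Vcan, a matrix proteoglycan, had 0.22 (adjusted p = 0.0344) and falls outside the limit of 4 genes named per list, so it was chosen after its values were seen. Of 21 further genes of mature oligodendrocytes 1 was called higher, Nfasc, a cell adhesion gene of paranodes that neurons also express (0.24, adjusted p = 0.0144). Their median was 0.07. Without ID insulin replicates 3 and 5, 3 precursor genes were called higher (Gpr17, Enpp6 and Itpr2), with a median of 0.08, and 0 of the further mature genes. With the ID control libraries numbered 69 alone, Gpr17 and Vcan were called, and with those numbered 70 alone, Gpr17, Enpp6, Itpr2 and Nfasc.

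The effect of insulin without iron deficiency was read from IS insulin minus IS control. No member was called, and 0.123% of all genes were. At an unadjusted p under 0.05 the members held 5 higher (Mal, Opalin, Ermn, Hapln2 and Cryab) and 0 lower, where 8.7% of all genes were higher and 7.59% lower. DESeq2 and limma voom also called 0 members, against 1.33% and 0.181% of all genes. Of the fold changes 27 were above 0 and 6 below, with a median of 0.06. Opalin, a glycoprotein of paranodal loops, was 146 to 183 CPM in IS control and 171 to 293 CPM in IS insulin (log2 fold change 0.28, adjusted p = 0.193). Ermn, a cytoskeletal protein of myelinating cells, was 43.3 to 74.2 CPM against 59.7 to 124 CPM (0.33, adjusted p = 0.212). Both had their highest value in IS insulin replicate 1. Mal had 0.26 (adjusted p = 0.259), Cryab 0.19 (adjusted p = 0.245), Mbp 0.08 (adjusted p = 0.772), Cnp 0.02 (adjusted p = 0.935) and Enpp2 0.46 (adjusted p = 0.644). Of 19 precursor genes 0 were called, with a median of -0.06.

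Among insulin-treated pups the diets were compared as ID insulin minus IS insulin. Mal and Cryab were called lower and 0 members higher, while 2.45% of all genes were called and 1.13% were lower. The median of the members was -0.05, with 13 above 0 and 20 below. Erbb3 was 50.7 to 62.5 CPM for IS insulin pups (median 54.6) against 37.3 to 57.1 CPM for ID insulin pups (median 42.9), with 7 of 8 ID insulin libraries below all IS insulin libraries (log2 fold change -0.31, SE 0.10, adjusted p = 0.0691). Without ID insulin replicates 3 and 5 it passed the test (-0.40, adjusted p = 0.0286), as did Mal (-0.78) and Cryab (-0.54), with 26 of 33 members below 0, a median of -0.15 and 2.52% of all genes called. Mbp had 0.03 (adjusted p = 0.914), Cnp 0.06 (adjusted p = 0.774), Enpp2 0.34 (adjusted p = 0.708) and Sirt2 0.14 (adjusted p = 0.271). Of the precursor genes Gpr17 (0.28, adjusted p = 0.00326) and Itpr2 (0.44, adjusted p = 0.0227) were higher, and of the further mature genes Plekhb1 was lower (-0.42, adjusted p = 0.0429).

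The interaction tests whether the difference between insulin and control depends on the diet. It passed for Mal and Cryab, both negative, where 0.939% of all genes passed and 0.427% were negative. For Mal the log2 fold change with insulin was 0.26 in IS pups and -0.48 in ID pups, a difference of -0.74 (SE 0.16, adjusted p = 0.0242). For Cryab it was 0.19 in IS pups and -0.28 in ID pups, a difference of -0.46 (SE 0.11, adjusted p = 0.0399). The other 31 members did not pass, with Adamts4 (0.44, adjusted p = 0.0637) and Gjc3 (0.58, adjusted p = 0.0705) nearest. Without ID insulin replicates 3 and 5 the same 2 genes passed, Mal at -0.83 (adjusted p = 0.00876) and Cryab at -0.51 (adjusted p = 0.0231), against 2.8% of all genes. Leaving out 1 library ended the Cryab call in 15 of 32 fits (ID control replicate 3, 4, 5 or 7, IS control 5 or 8, IS insulin 1, 2, 3 or 4 and ID insulin 2, 4, 6, 7 or 8) and the Mal call in 0. With the ID control libraries numbered 69 alone the values were -0.81 for Mal (adjusted p = 0.0577) and -0.54 for Cryab (adjusted p = 0.061), and 0 members passed against 0.0771% of all genes. With those numbered 70 alone, Gjc3, Gal3st1, Sema4d and Adamts4 passed with positive differences, against 0.788% of all genes, while Mal (-0.63, adjusted p = 0.0819) and Cryab (-0.36, adjusted p = 0.167) did not. Among precursor genes Gpr17 (0.47, adjusted p = 0.00244) and Itpr2 (0.68, adjusted p = 0.0236) passed, and among the further mature genes Nfasc did (0.36, adjusted p = 0.0278).

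The remaining members are given by the range of their 4 group means. Qdpr group means were 57.4 to 63.2 CPM and Pmp22 means 45.4 to 49.5 CPM. Means of Gamt, which makes creatine, were 52.6 to 57.2 CPM. Pllp, plasmolipin of the myelin membrane, had means of 90.9 to 98.3 CPM, Fa2h, the hydroxylase of myelin fatty acids, 93.0 to 107 CPM, and Mag, the adhesion protein next to the axon, 572 to 620 CPM. Tspan2 had means of 419 to 474 CPM, Cldn11, the tight junction claudin of myelin, 538 to 656 CPM, Gpr37, a G protein-coupled receptor, 149 to 176 CPM and Tmem88b 24.7 to 26.9 CPM. The means of Gjb1, a second connexin, were 10.98 to 13.7 CPM, those of Ninj2, an adhesion protein, 7.85 to 8.15 CPM, of Hapln2 5.04 to 6.80 CPM, of Ppp1r14a 7.53 to 9.03 CPM, of Nkx6-2 6.92 to 8.89 CPM and of Gal3st1 17.0 to 21.1 CPM. Plekhh1 had means of 45.1 to 52.4 CPM. Mog, apart between the title numbers, had means of 165 to 189 CPM. Some of these ranges moved when ID insulin replicates 3 and 5 were left out. The lowest mean, then in ID insulin, was 88.4 CPM for Pllp, 160 CPM for Mog and 6.91 CPM for Ninj2. It was also in ID insulin for Fa2h (89.6 CPM), Gamt (50.2 CPM), Tmem88b (23.0 CPM), Pmp22 (44.7 CPM) and Ppp1r14a (7.43 CPM). The highest mean fell to 19.4 CPM for Gal3st1, 49.5 CPM for Plekhh1, 616 CPM for Mag and 8.81 CPM for Nkx6-2. The other ranges did not change. None of these 18 genes was called in the comparisons of the 4 groups by edgeR's test over all 32 libraries.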

How the data were processed

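RNA was sequenced from the hippocampus of 32 rats. The authors deposited 1 table of read counts by gene. They used, per the submitters' processing notes, Trimmomatic (version 0.40), FastQC, HISAT2 (version 2.1.0), featureCounts and edgeR. The notes list the builds Rnor_6.0 and mm10 without a role, and use of strand and of reads with several matches is not given in the sources used here, so overlapping, antisense and near-identical genes are uncertain. Groups came from the labels, and replicate numbers follow the order of the samples. No column of another sample was in the table.

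Counts were tested with edgeR (version 4.0.16, R version 4.3.3): TMM scaling, filterByExpr by group, and the two-sided quasi-likelihood F-test (glmQLFit with legacy = FALSE, glmQLFTest) with 1 coefficient per group over 32 libraries (28 residual degrees of freedom). Title numbers were compared in the 9 ID control libraries (7 residual degrees of freedom). Benjamini-Hochberg adjustment ran over all genes tested, and genes were called at an adjusted p under 0.05. CPM used TMM-scaled totals. SEs were derived from the fold change and its F statistic. Depth of 19619345 to 28062630 counts limits the precision of members of a few CPM. Alternatives used DESeq2 (version 1.42.0), limma (version 3.58.1) voom, other filters, a replicate block, covariates, subsets of libraries and each library left out. The scripts were tested on simulated data. Named genes were all members, at least the called ones and the one of highest CPM in each role, and up to 4 called genes per related list with the lowest adjusted p. The members and lists were chosen with earlier results of these data known. CPM was not divided by transcript length, so CPM values of different genes do not compare their transcript numbers. Sequences are from RefSeq, assembly GRCr8.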

Additional observations from a re-analysis of the deposited data

Results flagged for a closer look

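In 132 sets of libraries (1 member in 1 group), 9 held a library far from the others by Dixon's test, where chance gives about 5%. The number is thus close to the chance share. The sets are also not independent, since most members of a library moved together. In ID insulin replicate 3, Aspa was 64.7 CPM (the others 32.99 to 45.0), Gamt 89.0 CPM (39.2 to 56.7) and Ppp1r14a 11.98 CPM (6.25 to 8.39). In IS insulin replicate 1, Opalin was 293 CPM (171 to 203), Ermn 124 CPM (59.7 to 77.5) and Aspa 52.6 CPM (33.8 to 40.7). In ID control, Gjb1 was 7.00 CPM in replicate 9 (10.6 to 14.2) and Gamt was 63.9 CPM in replicate 4 (47.3 to 54.0). Enpp2 was 156 CPM in ID insulin replicate 7 (449 to 964).

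By the edgeR test of the interaction, the difference between insulin and control groups depended on diet for Mal and Cryab. The interaction was -0.74 on the log2 scale for Mal and -0.46 for Cryab. Mal was called in 8 of 11 alternative settings and Cryab in 6. Neither was called with the replicate block or with either title number alone as ID control. With 1 library left out, Mal was called in 32 of 32 fits and Cryab in 17.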

How the results depend on the processing

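No member reversed a called direction under any alternative. The counts of called members that moved by more than 1.5 times were these. ID control minus IS control, 0 called, had 2 with limma voom and 2 with title number 70 alone. ID insulin minus ID control, 6 called, had 1 with covariates, 1 with the compared groups only, 1 with title number 69 alone and 2 without ID insulin replicates 3 and 5. The interaction, 2 called with 0.939% of all genes, had 4 with DESeq2 (2.74%), 4 with limma voom (3.18%), 1 with no count filter (0.405%), 1 with covariates (0.227%), 0 with title number 69 alone and 4 with title number 70 alone. The title numbers, 4 called with 0.22% of all genes, had 12 with DESeq2 (1.1%), 8 with covariates (0.24%) and 2 in a fit of 32 libraries in 5 groups (0.0823%). The cause was not tested. Leaving out 1 library gave 0 to 0 called for ID control minus IS control and for IS insulin minus IS control, 2 to 8 for ID insulin minus ID control, 2 to 3 for ID insulin minus IS insulin, 1 to 4 for the interaction and 0 to 3 for the title numbers. The low of 2 came without ID control replicate 8 or ID insulin replicate 5 and the high of 8 without ID control replicate 1. For fits with 1 library left out, here and above, the share of all genes called is not given. These counts therefore do not show whether the members moved with all genes. Of the single calls in ID insulin minus ID control, Ugt8 was lost in 16 of 32 such fits, Sema4d in 7, Gjc3 in 2 and Adamts4 in 1, while Mal and Cryab against IS insulin were called in all 32 and in all 10 settings. The Mal interaction was called in 32 of 32 and the Cryab interaction in 17. The second number of the titles was used as a replicate block. Same-numbered libraries did not deviate together (median r 0.03 over 44 pairs, 8 above 0.1), so the numbers are not known to pair pups. With the replicate block, 0 members were called in the interaction and 0 between the title numbers, against 0.0583% and 0.107% of all genes. It called 6 in ID insulin minus ID control (4.55% of all genes), with Sema4d and Cryab lost and Mobp and Gal3st1 gained. The earlier quasi-likelihood fit of edgeR, an alternative chosen after the data were seen, gave the same 6, 2, 2 and 4 called members. The share of all genes called in that fit is not given here, so these counts do not show whether the calls over all genes moved. The compared-groups setting does not apply to the interaction, which uses all groups.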
